A study of Mus musculus with 2 samples.

Results

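Complement genes were compared between mouse neural retinal progenitor cells (mNRPCs) and mouse retina. The set held 9 genes, C3, C4b, Cfb, C1ra, C1qa, C1qb, Serping1, Cd55 and Cd59a, out of 31253 genes with a symbol in the deposited table. These genes were chosen by name and not by their values. There was 1 library of mNRPCs at passage 24 and 1 library of retina tissue, both from C57BL/6 mice. By the study's methods, mNRPCs came from dissociated adult retina and were kept on Matrigel in N2 and B27 medium with basic fibroblast growth factor and CHIR99021, which blocks the kinase GSK3. The labels do not name the medium of the sequenced culture, nor the age and number of mice behind either library, and they name no treatment of the retina tissue. The values were FPKM, fragment numbers scaled to transcript length and library size, which the authors gave for each RefSeq transcript and which were summed here for each gene. With 1 library in each group there was no spread between replicates, so no difference described here was tested and no p-value was calculated.

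Complement is a cascade of blood and tissue proteins that tags surfaces for removal and can open pores in membranes. In the classical route the C1 complex, made of the recognition protein C1q and the proteases C1r and C1s, cleaves C4 and C2, and the enzyme so formed cleaves C3. The alternative route amplifies C3 cleavage through factor B, and the terminal components form the pore. Host cells are protected by soluble inhibitors such as C1 inhibitor and by membrane proteins such as CD55 and CD59. In the nervous system C1q is known as a product of microglia and is known for its part in the removal of synapses.

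The libraries were checked against markers of the labelled material. All 20 rod genes were lower in mNRPCs, with 223 FPKM in sum against 38706 FPKM in retina. Of 8 retinal progenitor markers, 6 reached 1 FPKM in mNRPCs, while Rax was listed at 0 there. The deposited table gave no counts. Depth was estimated from where values of FPKM times transcript length gathered most densely within a fixed low range. That point was taken as the worth of 1 fragment. Depth came to 6.38e+06 fragments for mNRPCs and 5.31e+06 for retina, and a depth outside the range could not have been found. All fragment numbers are estimates from this depth and from the length of 1 curated transcript of the gene, and are approximate where predicted transcripts hold part of the value. Intervals given as counting intervals are exact Poisson intervals at 95% that cover counting error only. A gene at or under 3 estimated fragments was taken as not detectable at this depth. As the estimation may have failed where the table holds 0, such a gene is described as listed at 0.

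For the comparison, 1 was added to each FPKM value, and the log2 ratio of a gene was taken as mNRPCs over retina. On this scale the change of a low gene comes out too small. Genes that reached 1 FPKM in either library were compared, and a log2 ratio of at least 1 in size was called higher or lower. Of the 9 complement genes 7 were compared, and Cfb and Cd55 stayed under 1 FPKM in both libraries. C1ra was higher in mNRPCs. C1qa, C1qb, C4b, Serping1 and Cd59a were lower, and C3 lay within the threshold. Thus 1 of 7 was called higher, where 24.46% of all 13780 compared genes were, and 5 of 7 were called lower, where 29.97% of all compared genes were. The median log2 ratio of the 7 genes was −1.29, and that of all compared genes was −0.12. The split over all genes depended on the scaling, with 3371 higher and 4130 lower as deposited, 2639 and 5619 after rescaling to equal sums, and 2195 and 5954 without the rod genes. The 9 genes gave 1 higher and 5 lower under both rescalings. In sum the 9 genes were at 23.3 FPKM in mNRPCs and at 61.7 FPKM in retina, and Cd59a held most of both sums. In bulk RNA, fewer cells of a type and less RNA in each cell cannot be told apart.

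**Figure D1:**
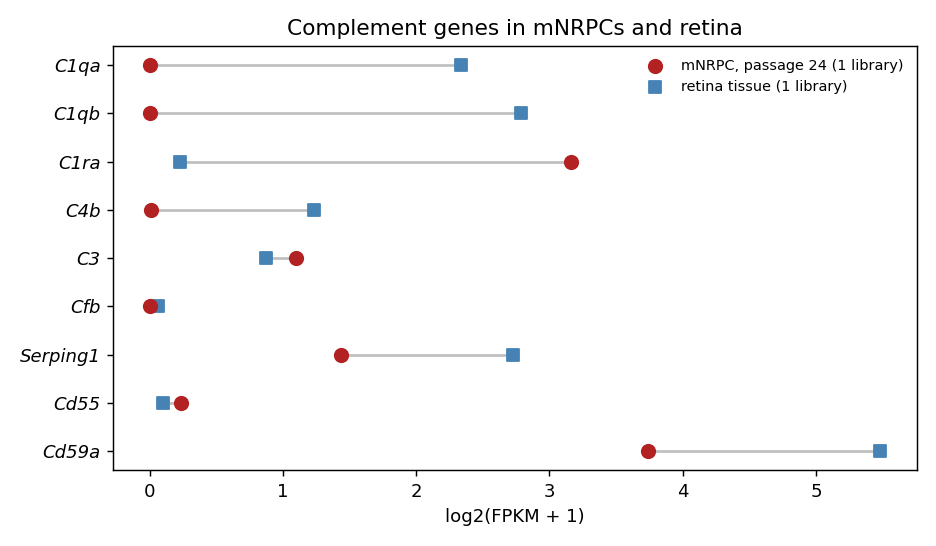
Level of each of the 9 complement genes, as log2(FPKM + 1), in the mNRPC library (circles) and the retina library (squares), with 1 library in each group and no error bars for that reason. C1ra is the gene with the widest gap toward mNRPCs, C1qa and C1qb are listed at 0 in mNRPCs, and Cd59a is the highest gene in both libraries.

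The sequence upstream of the start is shown for 2 of the genes that the results turn on. These are C1qb, which was read in retina and listed at 0 in mNRPCs, and C3, whose transcripts were split differently between the libraries. The 250 bases before the annotated start were taken from RefSeq (GRCm38.p6) on the strand of the gene and run 5′ to 3′. Capitals mark letters that matched any of 6 motifs searched on both strands. The motifs were GAGGAA for PU.1, TTCNNNGAA for GAS, TTGCNNAA for C/EBP, TATAAA for the TATA box and the kappaB motif. For ISRE the search was for GAAA followed after 2 free bases by the same letters.
C1qb, chr4:136886201-136886450, minus strand: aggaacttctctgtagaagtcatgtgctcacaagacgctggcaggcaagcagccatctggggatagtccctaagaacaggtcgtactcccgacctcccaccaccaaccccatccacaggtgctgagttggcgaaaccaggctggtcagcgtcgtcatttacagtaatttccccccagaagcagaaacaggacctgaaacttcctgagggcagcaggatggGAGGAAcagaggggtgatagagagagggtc
C3, chr17:57228137-57228386, minus strand: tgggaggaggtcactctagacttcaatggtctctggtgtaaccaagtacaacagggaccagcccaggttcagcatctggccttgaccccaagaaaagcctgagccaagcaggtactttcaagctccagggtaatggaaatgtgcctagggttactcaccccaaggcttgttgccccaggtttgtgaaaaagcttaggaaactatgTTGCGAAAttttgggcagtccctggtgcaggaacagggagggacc

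The C1qb window held GAGGAA from 30 to 25 bases before the start. The Cd59a window (chr2:104095551-104095800, plus strand) reaches past the first base of the gene record and is not printed. It held GAGGAA from 62 to 57 bases before the start, and the ISRE letters GAAAGGGAAA from 187 to 178 bases before it. The C3 window held 1 match to the C/EBP letters, TTGCGAAA, from 45 to 38 bases before the start. No matches overlapped in these windows. Among 32817 upstream windows of the same length in the table, 23.3% held GAGGAA, 2.97% the ISRE letters and 9.57% the C/EBP letters. The other letters were found in 7.01% (GAS), 7.25% (kappaB) and 12.4% (TATA box) of windows. Of the 9 genes 5 had a window in the table, and C1ra and Cd55 had no match in theirs. C1qc, the neighbour of C1qb, had GAGGAA on the opposite strand from 193 to 188 bases before its start and kappaB letters from 41 to 32 bases before it. These matches describe the letters only, and binding was not measured.

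The recognition and protease parts of C1 went in opposite directions. C1qa and C1qb encode chains of C1q, and together with C1qc, which encodes the remaining chain, lie within a short stretch of chromosome 4 (C1qa at chr4:136895916-136898844 and C1qb at chr4:136880126-136886200, GRCm38). In mNRPCs C1qa was listed at 0, against 4.04 FPKM in retina (counting interval 2.54 to 6.10, an estimated 22.3 fragments). In mNRPCs C1qb was listed at 0 as well, against 5.89 FPKM in retina (4.08 to 8.23, 34.0 fragments). The third chain, C1qc, had 0 in mNRPCs and 6.11 FPKM in retina (4.35 to 8.36). The counting intervals of the 3 chains overlapped in retina, so their order there was not resolved. In mNRPCs 3 fragments would be 0.452 FPKM for C1qa and 0.432 FPKM for C1qb, and higher levels than these would have been detectable. C1qa and C1qb each had 1 transcript row, so no division between transcripts entered these values. The longest C1qb and C1qc transcripts of GENCODE shared no identical window of 50 bases.

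Of 10 microglial markers only Tyrobp was called lower in mNRPCs, Tmem119 lay within the threshold, and the other 8 were under 1 FPKM in both libraries. Of the 10 markers 8 were listed at 0 in mNRPCs, among them Cx3cr1, P2ry12, Trem2 and Tyrobp. The summed level of the list was 1.23 FPKM in mNRPCs and 6.82 FPKM in retina. In mNRPCs Tmem119 made up nearly all of the sum, at 1.22 FPKM against 0.880 FPKM in retina, and Csf1r was at 0.00796 FPKM against 0.357. In retina all 10 markers were above 0, from 0.0148 FPKM for P2ry12 to 2.85 FPKM for Tyrobp. The part of microglia in the C1q values was not tested.

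C1ra, which encodes a form of the protease C1r, was at 7.94 FPKM in mNRPCs (counting interval 6.72 to 9.31, 151 fragments) and at 0.168 FPKM in retina (0.0302 to 0.522). The retina value came to an estimated 2.66 fragments, under the limit of 3. The ratio of C1ra was 47.2-fold toward mNRPCs, with a counting interval of 14.9 to 266 (exact binomial, given the sum of both fragment numbers). Its log2 ratio was 2.94, at rank 774 from the top among 13780 genes. C1ra lies at chr6:124512621-124523440, and its neighbour C1s1, a gene of the protease C1s, lies on the other strand with a gap of 6.90 kb between the gene records. C1s1 was at 4.52 FPKM in mNRPCs (3.61 to 5.60, 83.9 fragments) and at 0.455 FPKM in retina (0.183 to 0.936, 7.01 fragments), a log2 ratio of 1.93. Both protease genes were therefore higher in the library where all C1q chains were listed at 0. Of C1s1 in mNRPCs, 67.5% was on 1 curated transcript, and in retina this transcript held nearly the whole value.

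The second copies of these proteases were not read at comparable levels. C1rb was listed at 0 in both libraries, and C1s2 was listed at 0 in mNRPCs and at 0.0757 FPKM in retina, an estimated 1.07 fragments. C1ra and C1rb are alike in sequence, and 48.0% of the 50-base windows of the longest C1ra transcript occurred unchanged in C1rb, or 34.5% of its 100-base windows. The division of fragments between C1ra and C1rb is therefore uncertain, although all of the sum was given to C1ra. Fibroblast and pericyte markers were at 459 FPKM in sum in mNRPCs and at 6.86 FPKM in retina. Of the mNRPC sum 450 FPKM was Col3a1. Of the 7 markers 2 were higher in mNRPCs (Col3a1 and Pdgfrb), 3 lay within the threshold, and Col1a2 and Lum were under 1 FPKM in both libraries, with Lum listed at 0 in both. The part of such cells in the C1ra and C1s1 values was not tested.

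C4b, which encodes the component C4 that C1s cleaves, was near 0 in mNRPCs. C4b had 0.00777 FPKM in mNRPCs, which is 0.267 estimated fragments, and 1.35 FPKM in retina (counting interval 0.957 to 1.85, 38.5 fragments). In mNRPCs 3 fragments of C4b would be 0.0874 FPKM. The counting interval of the ratio had its lower end at 10.4-fold toward retina, and its upper end was not resolved at under 1 fragment. Its log2 ratio was −1.22. In retina the value was spread over 3 transcript rows, with 60.1% on the curated row and 29.8% and 10.2% on the predicted ones. The curated row alone was at 0.00704 FPKM in mNRPCs and 0.810 FPKM in retina. Relative to the median of all compared genes, C4b was at −1.10 as deposited, −1.42 after rescaling to equal sums and −0.69 without rod genes. The curated row was under 1 FPKM in both libraries, and C4b then left the comparison with a log2 ratio of −0.85.

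C4b at chr17:34728139-34743902 has a close copy, C4a, 65.2 kb away. C4a had 0.112 FPKM in mNRPCs and 0.387 FPKM in retina. Of the 50-base windows of C4b 35.2% occurred unchanged in C4a, and 16.5% of the 100-base windows, so fragments can be exchanged between them. With C4a added to C4b, a setting chosen after seeing the data, the log2 ratio was −1.29. C2, whose product joins C4 in the enzyme that cleaves C3, was at 0.480 FPKM in mNRPCs (8.09 fragments) and at 0.516 FPKM in retina (7.23 fragments). The counting intervals of C2, 0.208 to 0.942 and 0.211 to 1.05 FPKM, overlapped almost fully.

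C3 (chr17:57203967-57228136), the central component on which all routes meet, was at 1.14 FPKM in mNRPCs (counting interval 0.807 to 1.57) and at 0.828 FPKM in retina. Its log2 ratio of 0.23 was within the threshold and its sign depended on the scaling, with −0.0319 after both libraries were brought to a sum of 1e+06 and −0.12 after rod genes were removed and the libraries rescaled. Relative to the median of all compared genes, C3 was 0.35 above it as deposited and 0.58 and 0.62 above it under these settings. The similar sums covered different transcripts. The curated C3 transcript was at 0.932 FPKM in mNRPCs and at 1.69e-05 FPKM in retina, and the predicted transcript at 0.211 FPKM in mNRPCs and 0.828 FPKM in retina. The curated transcript thus held 81.6% of C3 in mNRPCs, whereas the predicted one held nearly all of C3 in retina. The length of the predicted transcript was not in the tables used here, so no fragment number is given for C3 in retina. In mNRPCs the C3 sum came to an estimated 37.5 fragments at the length of the curated transcript. The division of fragments between these transcripts is an estimate, and its error is not known.

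**Figure D2:**
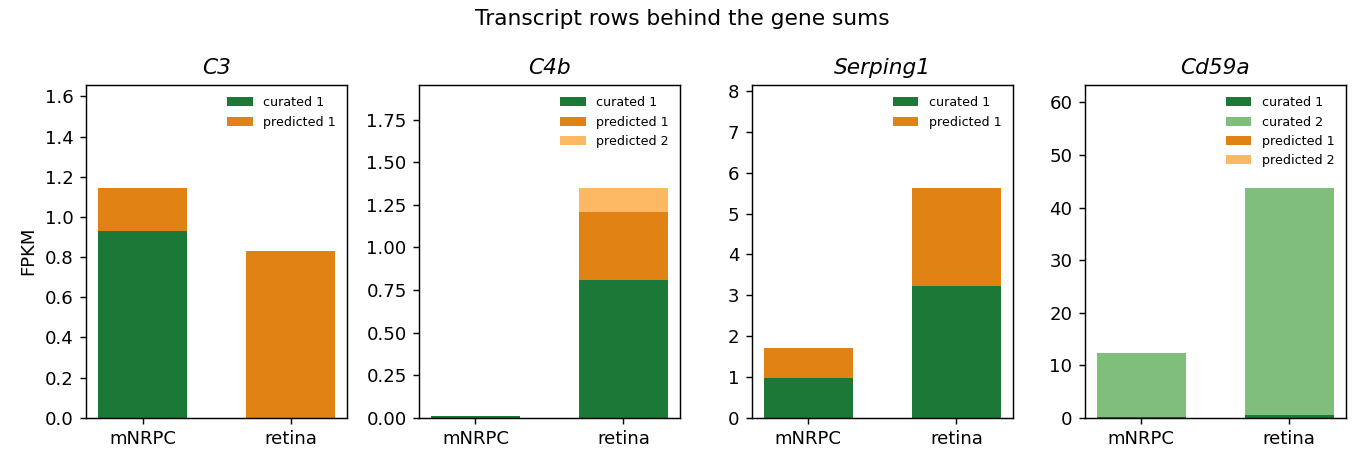
FPKM of the transcript rows summed for C3, C4b, Serping1 and Cd59a in the mNRPC and retina libraries, with curated rows in green and predicted rows in orange, and a separate axis for each gene. C3 is mostly curated in mNRPCs and predicted in retina, while Serping1 is divided alike in both libraries.

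Of the alternative pathway, Cfb, which encodes the protease factor B, was not detectable. Cfb, at chr17:34856374-34862514, was listed at 0 in mNRPCs and had 0.0434 FPKM in retina, an estimated 0.630 fragments spread evenly over 4 transcript rows. In mNRPCs 3 fragments would be 0.172 FPKM, and 0.207 FPKM in retina. Cfd, the gene of the factor D that activates factor B, was listed at 0 in both libraries. Cfp, the gene of properdin, which stabilises the alternative enzyme, was at 4.04 FPKM in mNRPCs (counting interval 2.91 to 5.45) and at 10.2 FPKM in retina (8.19 to 12.6), a log2 ratio of −1.15. Properdin was therefore read in both libraries while Cfb and Cfd were under the limit of 3 fragments in both.

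Serping1 (chr2:84765360-84775444), which encodes C1 inhibitor, the blocker of C1r and C1s, was lower in mNRPCs. Serping1 was at 1.71 FPKM in mNRPCs (counting interval 1.04 to 2.66, 19.3 fragments) and at 5.62 FPKM in retina (4.21 to 7.36, 52.8 fragments). The ratio was 3.28-fold as deposited, and the log2 ratio was −1.29. The counting intervals did not overlap. The curated row of Serping1 had 0.975 FPKM in mNRPCs and 3.23 FPKM in retina and the predicted row at 0.737 and 2.40, so that the division was alike in both libraries. The inhibitor was thus lower in the library in which C1ra and C1s1 were higher.

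The membrane regulators differed in level and in direction. Cd59a (chr2:104095753-104115410) encodes CD59, which blocks the terminal pore, and was the highest of the 9 genes in both libraries. It was at 12.4 FPKM in mNRPCs (counting interval 10.3 to 14.6, 133 fragments) and at 43.7 FPKM in retina (39.5 to 48.2, 392 fragments), 3.54-fold lower in mNRPCs and with a log2 ratio of −1.74. Among genes of at least 1 FPKM, its level was above that of 86.7% of genes in retina and above that of 48.5% in mNRPCs. The same curated transcript held 99.2% of Cd59a in mNRPCs and 98.7% in retina. Cd59b, its neighbour and family copy on chromosome 2, had 0.842 FPKM in mNRPCs and 0.453 FPKM in retina, nearly all on predicted transcripts whose length was not in the tables used, so no fragment number is given. Only 3.98% of the 50-base windows of Cd59a occurred in Cd59b, and with Cd59b added the log2 ratio of Cd59a was −1.67.

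Cd55 (chr1:130429798-130465009) encodes decay accelerating factor, which breaks up the enzymes that cleave C3, and was not detectable in either library. Cd55 had 0.177 FPKM in mNRPCs, or 2.86 estimated fragments, and 0.0736 FPKM in retina, or 0.990 estimated fragments. Its copy Cd55b was listed at 0 in both. Cr1l, the gene of the rodent regulator Crry, which acts on the same enzymes, was at 21.5 FPKM in mNRPCs (counting interval 18.8 to 24.5, 227 fragments) and at 1.21 FPKM in retina (0.592 to 2.18, 10.6 fragments). It was 17.8-fold higher in mNRPCs, with a log2 ratio of 3.35. Cd46, a cofactor for the cleavage of C3 and C4 fragments, had 0.581 FPKM in mNRPCs and 2.62 FPKM in retina, a log2 ratio of −1.20. The RefSeq records of Cd46 (chr1:195038971-195098784) and Cr1l (chr1:195098711-195131570) overlap only at their ends. Cd46 was spread over predicted rows with its curated row listed at 0. The division between these genes is therefore uncertain, and no interval is given for Cd46. The intervals of Cr1l cover counting error only, and neither they nor its ratio take this division into account. In FPKM the order of the membrane regulators was Cr1l, Cd59a, Cd59b, Cd46 and Cd55 in mNRPCs, where the intervals of Cr1l and Cd59a did not overlap. In retina the order was Cd59a, Cd46, Cr1l, Cd59b and Cd55. The full order below Cd59a was not resolved there, as Cd46 and Cd59b have no interval. Only Cr1l and Cd55 (0.0018 to 0.413 FPKM) could be set against each other in retina, and their counting intervals did not overlap. In mNRPCs the order below Cd59a was not resolved, again because Cd46 and Cd59b have no interval.

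The wider pathway was described from a list of 49 genes in 8 groups, all in the table. Of these 15 were compared, and 3 of 15 were higher in mNRPCs, against 24.46% of all compared genes. Another 11 of 15 were lower, against 29.97% of all compared genes, and C3 lay within the threshold. The higher genes were C1ra, C1s1 and Cr1l. The median log2 ratio of the 15 genes was −1.29. Of the 34 genes that stayed under 1 FPKM in both libraries, 15 were listed at 0 in both. Of the 40 genes outside the 9, 8 were compared, with 2 of 8 higher and 6 of 8 lower, beside the same shares of 24.46% and 29.97% over all genes.

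Of the other soluble regulators, Vtn and Clu were lower in mNRPCs, and Cfi and C4bp were under 1 FPKM in both libraries. Vtn, the gene of vitronectin, which binds the terminal complex, had 0.219 FPKM in mNRPCs (2.43 fragments) and 420 FPKM in retina. The ratio was 1923-fold toward retina, with a counting interval of 591 to 11988. Clu, the gene of clusterin, was at 32.6 FPKM in mNRPCs and 331 FPKM in retina, 10.1-fold lower with a log2 ratio of −3.30. Müller glia and astrocyte markers were all lower in mNRPCs, 8 of 8, with 49.97 FPKM in sum against 1350 FPKM in retina, and Gfap and Kcnj10 were listed at 0. Pigment epithelium markers were at 0.207 FPKM in sum in mNRPCs and at 105 FPKM in retina, and endothelial markers at 0.151 and 38.6 FPKM. The part of these cell types and of the rods in the lower regulators was not tested.

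No gene of the terminal components, the lectin route or the receptors reached 1 FPKM in either library. Of 7 terminal genes 6 were listed at 0 in both libraries, and C8g was at 0.344 FPKM in mNRPCs (1.81 fragments) and listed at 0 in retina. Of 8 lectin genes 4 were listed at 0 in both libraries, and Masp2, a protease of this route, was listed at 0 in mNRPCs and had 0.604 FPKM in retina (9.81 fragments). Of 8 receptor genes, C3ar1, the receptor of the C3a fragment, was at 0.230 FPKM in mNRPCs (6.33 fragments) and at 0.0987 FPKM in retina (2.25 fragments). Itgam, a chain of complement receptor CR3 and a marker of microglia, was listed at 0 in mNRPCs and had 0.725 FPKM in retina (17.9 fragments). Itgb2, the other chain of CR3, was read in both libraries, at 0.463 FPKM in mNRPCs (8.78 fragments) and 0.779 FPKM in retina (12.3 fragments).

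**Figure D3:**
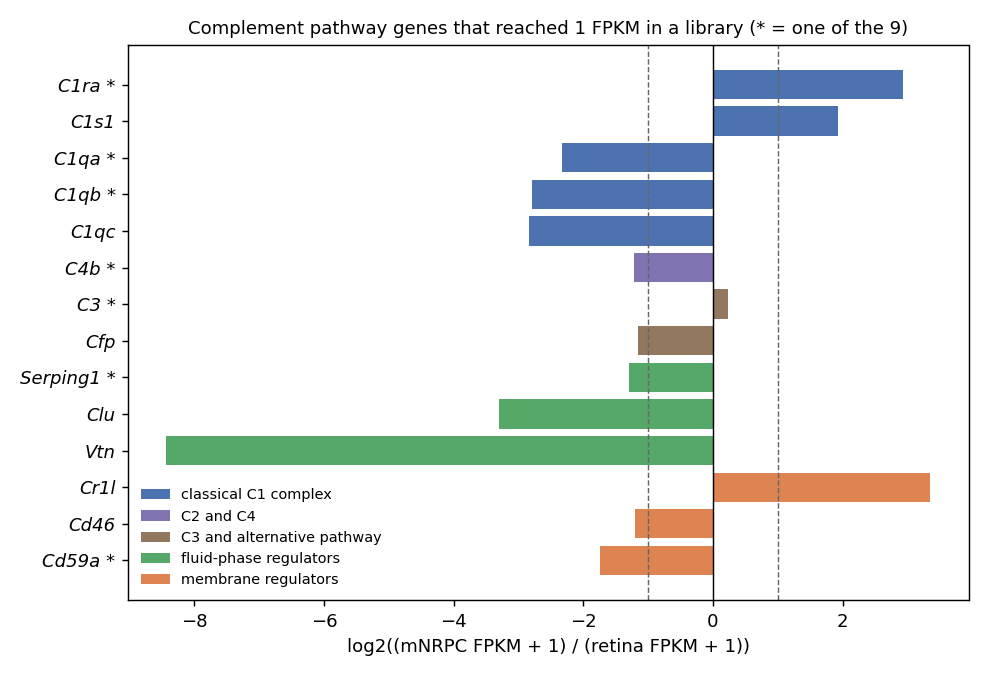
Log2 ratio of (mNRPC FPKM + 1) to (retina FPKM + 1) for 14 of the 15 complement pathway genes that reached 1 FPKM in either library, coloured by group, with dashed lines at the threshold of 1 in size. The bars of C1ra, C1s1 and Cr1l point toward mNRPCs, that of C3 is short, and Vtn has the longest bar toward retina.

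The log2 ratios were set beside those under other processing. C1ra stayed above the threshold under each of the settings shown, from 2.57 to 5.39. C1qa ranged from −5.37 to −2.33, C1qb from −5.90 to −2.78, Serping1 from −1.89 to −1.10 and Cd59a from −2.42 to −1.67, all below the threshold under each of these. C4b ranged from −3.95 to −0.85, and the values under the threshold in size all came from curated rows, the highest row and accessions matched by version. C3 ranged from −0.12 to 0.95, Cfb from −0.52 to −0.0164 and Cd55 from −0.27 to 0.67, all within the threshold.

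**Figure D4:**
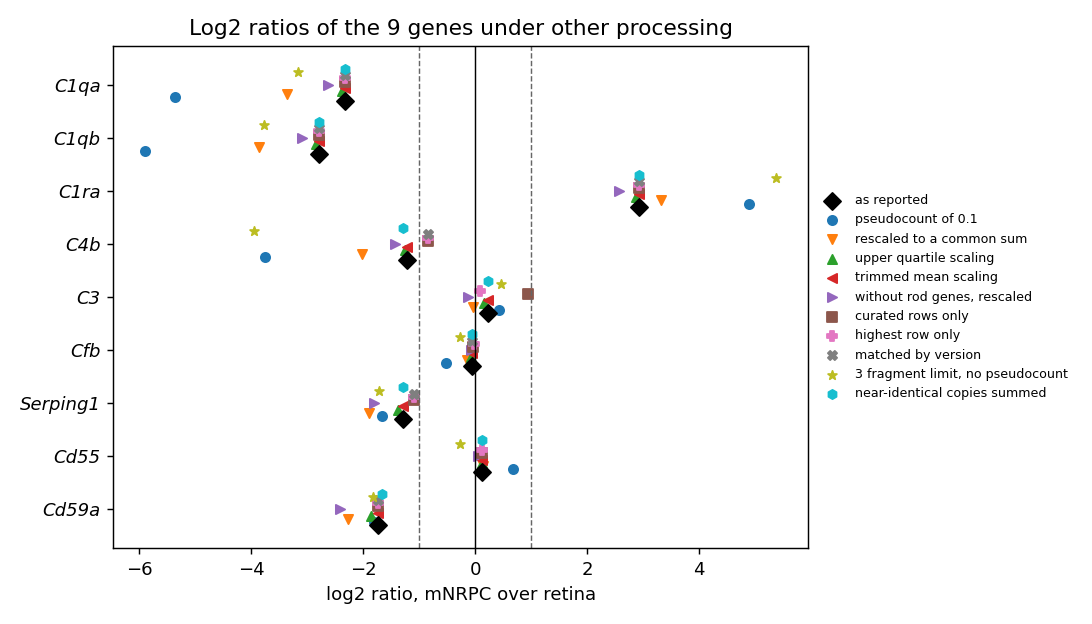
Log2 ratio of each of the 9 genes as reported (black diamonds) and under 10 other settings (coloured points), with dashed lines at 1 in size. C1ra stays right of the threshold, C1qa, C1qb, Serping1 and Cd59a stay left of it, and C4b is the gene with points on both sides of its threshold.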

How the data were processed

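RNA from 1 mNRPC library and 1 retina library was analysed, grouped by the labels. The deposited values were FPKM for 106754 RefSeq transcripts. The labels' processing notes name TopHat2 2.0.10, TopHat and the build GRCm38.p3. The study's methods, written for treated mNRPCs, name Bowtie 2 and eXpress, so which steps made these values is unsure. eXpress divides shared fragments by estimation, which makes single transcripts and close copies less certain than gene sums.

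Accessions were matched without version to RefSeq (GRCm38.p6), then GENCODE M21. This named 74283 rows (69.6%), with 93.2% of mNRPC FPKM and 89.9% of retina FPKM, and rows were summed. Chromosome coordinates do not differ between patch releases of GRCm38. FPKM below 1e-06 was read as 0. The pseudocount was 1, following the study. Depth came from genes with 1 row and a transcript of at least 1500 bp (4023 rows in mNRPCs, 4530 in retina). Within the same fixed range, a minimum of 500 or 2500 bp gave 6.24e+06 and 6.61e+06 fragments for mNRPCs and 4.90e+06 and 5.37e+06 for retina. Alternatives changed the pseudocount, the minimum FPKM, the scaling, the transcript rows summed, the matching and the threshold, and the sum with close copies was chosen after seeing the data. Copies were compared between the longest GENCODE transcripts. Genes and alternatives were chosen with earlier results of these data known. The text names the 9 genes, pathway genes past the threshold, close copies of the 9, and others chosen after their values were seen. Some listed genes enter the counts but are not reported here. The scripts (Python 3.11.15, pandas 2.3.3, SciPy 1.17.1) were tested on simulated data, with a simulated depth inside the range searched.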

Additional observations from a re-analysis of the deposited data

How the results depend on the processing

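Log2 ratios of the 9 genes under 10 settings gave 88 values. Of these 64 stayed within the estimated counting interval of the log2 ratio as reported, 24 moved beyond it and 0 of the called ones changed sign. This interval served as a yardstick of size and not as a test, since all settings used the same libraries. It is narrow for low genes because 1 was added to each FPKM value. C3 and Cd55 had no value with accessions matched by version. The count of complement genes higher in mNRPCs was 1 under each setting. The lower count of 5 was 3 at a minimum of 5 FPKM, which left 4 genes, 2 at a log2 ratio of 2, and 4 with curated rows, the highest row or matching by version, each of which left 5 genes. The median of the set moved from −1.29 to −1.81 (pseudocount of 0.1), −2.02 (common sum), −1.81 (without rod genes), −1.74 (curated rows), −1.73 (highest row), −1.74 (matched by version) and −1.82 (3 fragment limit). The median of the pathway list moved from −1.29 to −2.00, −2.02, −1.81, −1.92, −1.73, −1.92 and −2.18 under the same settings in the same order. It was −1.74 at a minimum of 5 FPKM and 0 with no minimum, where genes at 0 in both libraries enter. The pathway count of 11 of 15 lower genes was 9 of 12 with curated rows and 9 of 13 with the highest row. It was 7 of 9 at a minimum of 5 FPKM, 7 of 10 matched by version and 6 of 15 at a log2 ratio of 2. Over all genes 2195 were higher without rod genes. A log2 ratio of 2 gave 1547 higher and 1942 lower of 13780 genes, as a stricter threshold must give fewer. Over all genes a minimum of 5 FPKM gave 2879 higher and 2774 lower of 10717. Curated rows gave 3366 and 3554 of 12741. The highest row gave 3447 and 3832 of 13456, and matching by version 3229 and 3549 of 12475. The median of all genes was −0.12 as deposited, −0.61 with equal sums, −0.23 with the upper quartile and −0.75 without rod genes. Relative to it C1ra was between 3.05 and 3.93, and Serping1 between −1.28 and −1.07. For other shifts the cause was not tested. Depth limits Cfb, Cd55, C4b in mNRPCs and C1ra in retina, each at or under 3 estimated fragments. No paired analysis was possible because only 1 library stood for each condition.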
